A study of Saccharomyces cerevisiae with 44 samples.

Results

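Trehalose is a glucose disaccharide that budding yeast stores as a reserve and as a protectant of proteins and membranes, and it is known to build up when glucose runs out and to be consumed when growth resumes. Tps1 joins glucose 6-phosphate and UDP-glucose to trehalose 6-phosphate, and Tps2 removes the phosphate. Tps3 and Tsl1 are related regulatory subunits of the same synthase complex. Nth1 and Nth2 are neutral trehalases of the cytosol, and Ath1 is the acid trehalase, which acts on trehalose outside the cytosol. The transcripts of these 7 genes, 4 for synthesis and 3 for breakdown, were taken by name from the table of gene-strand counts of 6600 S. cerevisiae mRNA genes, and all 7 were tested in every comparison.

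On the sacCer3/R64 build, TPS1 (YBR126C) lies on chromosome II from 488905 to 490392 on the minus strand, and TPS2 (YDR074W) on chromosome IV from 593893 to 596583 on the plus strand. TPS3 (YMR261C) lies on chromosome XIII from 790205 to 793369 (minus) and TSL1 (YML100W) on the same chromosome from 70624 to 73920 (plus). NTH1 (YDR001C) lies on chromosome IV from 450220 to 452475 (minus), NTH2 (YBR001C) on chromosome II from 238941 to 241283 (minus) and ATH1 (YPR026W) on chromosome XVI from 615379 to 619014 (plus).

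The 44 libraries, all from strain W303, formed 22 groups of 2. Wild-type cells were arrested in G1 with alpha factor (5 µg/ml, added again at 90 min). Wild-type cells of day 7 were purified as quiescent on a gradient after growth in YEP with 2% glucose. Both were read as nascent RNA, which had taken up 4-thiouracil, and as steady-state RNA, with the Ovation kit. The other groups used the Universal Plus kit. They were quiescent wild-type and rrp6Δ cells of day 8 in both fractions, steady-state RNA of both strains in G1 and 2 h before, 2 h, 24 h and 48 h after the diauxic shift, and quiescent Nab3-AID and OsTIR-AID cells of day 7 in both fractions, all with auxin (IAA, 1 mg/ml). All G1 groups had the alpha factor treatment given above, and all quiescent groups grew with 2% glucose. The diauxic shift is the point at which glucose is used up. The strain rrp6Δ lacks the nuclear exosome nuclease Rrp6. Auxin targets AID-tagged Nab3, a factor that ends noncoding transcription, for degradation, and the OsTIR-AID strain is its control. The Nab3 protein level was not measured, and the 2 replicates of each group carry different strain numbers.

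Reads on S. cerevisiae mRNAs ranged from 1337088 to 11939647 per library. RRP6 stood at 3.23 to 17.9 library-size scaled counts (CPM) in the 14 rrp6Δ libraries and at 84.5 to 284 in the other 30. The 7 pheromone-induced marker genes summed to 14320 to 30670 CPM in the 8 G1 libraries and to 99.1 to 354 in the other 36, and 7 stationary-phase markers summed to 102 to 515 in G1 and 3308 to 92310 in the 20 quiescent libraries. All levels below are shares of S. cerevisiae mRNA, in CPM after TMM scaling over all libraries, and changes are log2 values ± standard error from edgeR with 2 libraries per group. Scaling to the K. lactis reads that each library also holds, whose amount the labels do not give, moved the median change of all genes by between -4.49 and 2.08. Of 107 called changes of the trehalose genes in 24 comparisons, 44 took the opposite sign under that scaling. All 107 kept their sign relative to the median of all genes, which is no separate check. With library scaling that median lay between -0.12 and 0.17, so subtracting the K. lactis median nearly returns the library-scaled change. A change in the share of cells that express a gene and a change in RNA per cell cannot be told apart in such samples.

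Around the diauxic shift, synthesis and breakdown transcripts rose together. In wild-type cells all 7 were higher at 2 h after the shift than at 2 h before it, although TPS3 moved little and was lower with K. lactis scaling (log2 -0.71). Over all genes 77.5% were called in this step. Such shares of all genes count calls in either direction, here and below, unless a direction is named.

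The catalytic synthase gene TPS1 stood at 256 and 288 CPM before the shift, at 1089 and 1070 after 2 h, at 1187 and 1184 after 24 h and at 1095 and 984 after 48 h. The phosphatase gene TPS2 stood at 151 and 176, then at 812 and 809, at 1004 and 955, and at 1520 and 1455. Their groups before and after the shift did not overlap, with changes of 2.00 ± 0.10 (adjusted p 3.6e-15) for TPS1 and 2.32 ± 0.12 (adjusted p 3.5e-15) for TPS2.

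The regulatory subunits took different courses. TSL1 went from 117 and 141 CPM to 1256 and 1260 at 2 h, stood at 1139 and 1046 at 24 h and fell to 629 and 631 at 48 h. TPS3 stood at 216 and 231, at 255 and 265, at 217 and 224, and at 71.8 and 66.4. The change over the shift was 3.30 ± 0.15 (adjusted p 8.4e-14) for TSL1 and 0.23 ± 0.09 (adjusted p 0.0216) for TPS3, whose call was lost with DESeq2 (adjusted p 0.104) and without replicate 1 before (0.18) or replicate 2 after the shift (0.20). Per kilobase, TSL1 was below TPS3 in both libraries before the shift (log2 ratios -0.95 and -0.78) and above it in both at 48 h (3.07 and 3.19).

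Among the trehalases, ATH1 had the largest change of the 7 genes over the shift. It stood at 29.4 and 32.9 CPM before, at 586 and 573 after 2 h, at 944 and 892 after 24 h and at 1452 and 1384 after 48 h, and the change over the shift was 4.23 ± 0.10 (adjusted p 1e-21). NTH1 went from 259 and 262 to 734 and 740, then to 803 and 781 and to 1519 and 1631. NTH2 went from 79.5 and 90.3 to 344 and 327, stood at 280 and 285 at 24 h and reached 922 and 828 at 48 h. Both neutral trehalase genes were called over the shift, at 1.51 ± 0.09 (adjusted p 8.8e-14) and 2.00 ± 0.09 (adjusted p 1e-16).

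**Figure D1:**
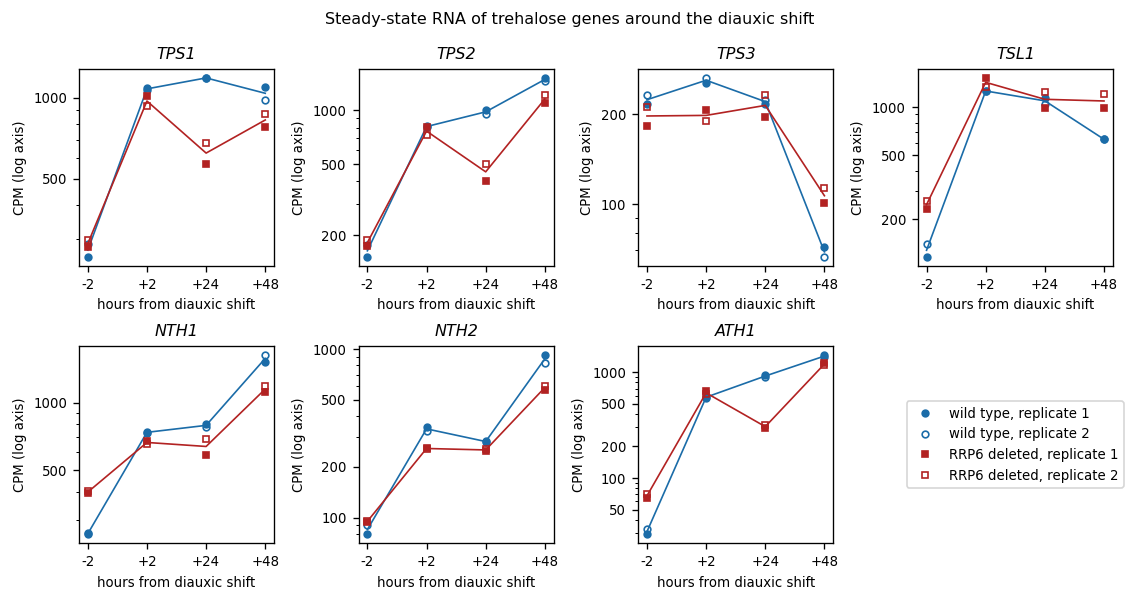
CPM on a log axis at 4 times around the diauxic shift for each gene, with filled and open points for the 2 replicates and lines through the means. In wild-type cells TPS3 and TSL1 turned down by 48 h while NTH1, NTH2 and ATH1 reached their highest wild-type values, and in rrp6Δ cells TPS1, TPS2 and ATH1 dipped at 24 h; these are shares of mRNA, and with K. lactis scaling the 48 h steps of NTH1 and ATH1 change sign.

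The day after the shift brought few further changes. Between 2 h and 24 h, 3 of 7 were higher in wild-type cells, against 60.3% of all genes called: ATH1 by 0.77 ± 0.08, TPS2 by 0.38 ± 0.11 and TPS1 by 0.24 ± 0.10. With K. lactis scaling, which moved the median of all genes by -1.34, these were -0.65, -1.04 and -1.18. The TPS1 call was lost without any 1 of the 4 libraries.

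Between 24 h and 48 h the groups parted. All 7 were called, against 71.2% of all genes, and the 3 breakdown genes rose while 3 of the 4 synthesis genes fell. NTH2 rose by 1.49 ± 0.09 (adjusted p 6.9e-14), NTH1 by 0.85 ± 0.09 (adjusted p 8.8e-09) and ATH1 by 0.48 ± 0.08 (adjusted p 1.4e-05), but with K. lactis scaling NTH1 and ATH1 were at -0.50 and -0.88. TPS3 changed by -1.80 ± 0.12 (adjusted p 8.2e-13), TSL1 by -0.94 ± 0.14 (adjusted p 8.2e-06) and TPS1 by -0.33 ± 0.10 (adjusted p 0.00588), a call lost with DESeq2 (adjusted p 0.0843) and without replicate 2 at 48 h (-0.26). TPS2 alone among the synthesis genes rose, by 0.46 ± 0.11, and was at -0.90 with K. lactis scaling.

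Compared with cells before the shift, wild-type G1 cells had 3 of 7 higher and 1 lower, against 53.3% of all genes called. NTH1 stood at 552 and 464 CPM in G1 (0.93 ± 0.09), TPS2 at 339 and 278 (0.88 ± 0.12) and ATH1 at 43.3 and 35.7 (0.31 ± 0.11), while TSL1 stood at 64.4 and 42.6 (-1.29 ± 0.16). The G1 libraries were sequenced in the other batch. A batch term, which rests on the replicates of rrp6Δ cells at 48 h, took the ATH1 call away (adjusted p 0.176), as did leaving out replicate 1 of either group (0.22 and 0.16).

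Which trehalose transcripts set quiescent cells apart from cells arrested in G1 was asked with the Ovation libraries of wild-type cells. In steady-state RNA the 3 breakdown genes and 3 of the 4 synthesis genes were higher in quiescence and TPS3 was lower, with all 7 called against 74.4% of all genes. The directions held with K. lactis scaling, under which 4 of 7 were called.

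ATH1 stood at 38.5 and 47.3 CPM in G1 and at 902 and 981 in quiescence, a change of 4.37 ± 0.22 (adjusted p 7.3e-07). NTH2 stood at 59.3 and 68.7 against 708 and 1162 (3.78 ± 0.29, adjusted p 4.8e-06), and NTH1 at 507 and 469 against 1446 and 999 (1.25 ± 0.24, adjusted p 0.00134). None of these groups overlapped.

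Among the synthesis genes, TSL1 stood at 84.2 and 97.3 CPM in G1 and at 636 and 252 in quiescence (2.22 ± 0.39, adjusted p 7.4e-04). TPS1 stood at 194 and 196 against 471 and 319 (0.94 ± 0.22, adjusted p 0.0044) and TPS2 at 462 and 459 against 954 and 626 (0.71 ± 0.24, adjusted p 0.0234). TPS3 stood at 317 and 347 against 94.4 and 73.2 (-2.06 ± 0.21, adjusted p 2.7e-05). Replicate 2 of quiescent steady-state RNA was lower than replicate 1 for the 4 synthesis genes and NTH1 and higher for NTH2 and ATH1. The TPS2 call was lost without replicate 1 of quiescent cells (0.24, adjusted p 0.24) and without either G1 library.

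**Figure D2:**
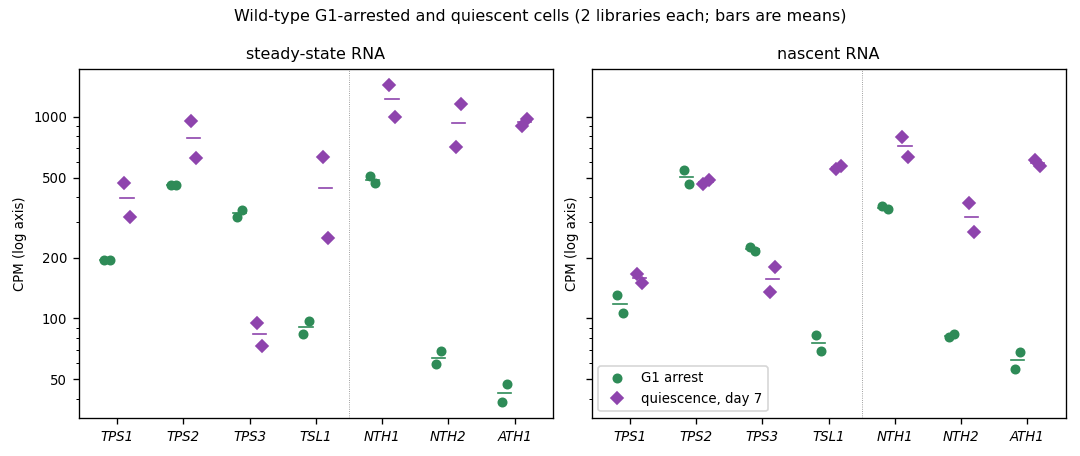
CPM on a log axis of each gene in wild-type G1-arrested (circles) and quiescent cells (diamonds), in steady-state and nascent RNA, with bars at the means of 2 libraries. The steady-state groups do not overlap for any of the 7 genes, and TPS3 is lower in quiescence in both fractions; K. lactis scaling reverses the nascent rise of TSL1, NTH1, NTH2 and ATH1.

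In nascent RNA of the same cells 4 of 7 were higher and 1 was lower, against 62.2% of all genes called. ATH1 stood at 56.4 and 68.1 CPM in G1 and 609 and 570 in quiescence (3.20 ± 0.20, adjusted p 5.9e-06). TSL1 stood at 82.6 and 69.1 against 552 and 573 (2.85 ± 0.39, adjusted p 3.6e-04), and NTH2 at 80.6 and 83.6 against 372 and 269 (1.92 ± 0.27, adjusted p 3.6e-04). With K. lactis scaling, which moved the median of all genes by -4.49, they were at -1.15, -1.56 and -2.51. NTH1 stood at 363 and 348 against 797 and 633 (0.96 ± 0.24, adjusted p 0.00759) and was at -3.46 with that scaling. Its call was lost without replicate 2 of G1 nascent RNA (adjusted p 0.0567).

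TPS1 (0.38 ± 0.22, adjusted p 0.164) and TPS2 (-0.12 ± 0.23, adjusted p 0.664) did not pass in nascent RNA. TPS3 stood at 226 and 215 CPM in G1 and at 135 and 180 in quiescence (-0.53 ± 0.20, adjusted p 0.0443). That call was lost without 3 of the 4 libraries, with the replicate block, which pairs libraries of the same strain number (adjusted p 0.0502), and with DESeq2 (adjusted p 0.0555).

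The nascent and the steady-state change between G1 and quiescence differed for 3 of the 7, against 37.6% of all genes. For NTH2 the nascent change less the steady-state change came to -1.86 ± 0.37 (adjusted p 0.00571), and for ATH1 to -1.18 ± 0.27 (adjusted p 0.00996), so their rise was smaller in nascent RNA. It was 1.53 ± 0.29 (adjusted p 0.00453) for TPS3, whose fall was smaller in nascent RNA, and -2.51 for TPS3 with K. lactis scaling. Leaving out single libraries left 2 to 5 of 7 called, and ATH1 was lost without replicate 2 of G1 nascent (-1.05) or replicate 1 of G1 steady-state RNA (-1.04).

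Nascent against steady-state RNA of the same state gave 1 of 7 called in G1, against 27.3% of all genes, and 6 of 7 in quiescence, against 52.7%. In quiescent cells the nascent share was below the steady-state share for NTH2 (-1.48 ± 0.26), TPS1 (-1.26 ± 0.23), NTH1 (-0.72 ± 0.24), TPS2 (-0.67 ± 0.24) and ATH1 (-0.62 ± 0.19), and above it for TPS3 (0.96 ± 0.21), which was at -1.40 with K. lactis scaling. Leaving out single libraries left 3 to 6 of these called, with TPS2 and NTH1 lost without replicate 1 of steady-state RNA (-0.26 and -0.35). In G1, TPS1 was lower in nascent RNA (-0.70 ± 0.22), was at 0.99 with K. lactis scaling and was not called without any 1 of the 4 libraries.

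Synthesis was set against breakdown in each library as the log2 ratio of the summed CPM per kilobase of TPS1, TPS2, TPS3 and TSL1 over that of NTH1, NTH2 and ATH1. Library scaling cancels in this ratio, and it is given as a description, with no test. It lay above 0 in 30 libraries and below 0 in 14, between -1.15 and 1.35. The order of the 22 group means ran from rrp6Δ at 2 h after the shift (1.30 ± 0.06, SD, n = 2) and wild type at the same time (1.24 ± 0.01) down to wild-type quiescent steady-state RNA of day 7 (-0.78 ± 0.52) and day 8 (-0.82 ± 0.14), but only 4 neighbouring pairs in that order had ranges that did not overlap.

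In wild-type cells the ratio was 1.14 ± 0.08 before the shift, 1.24 ± 0.01 at 2 h, 1.11 ± 0.00 at 24 h and 0.00 ± 0.06 at 48 h. Both sums rose at the shift, from 353 ± 30.1 to 1490 ± 7.07 CPM per kilobase for synthesis and from 160 ± 4.88 to 630 ± 5.94 for breakdown. By 48 h breakdown stood at 1462 ± 6.36 and synthesis at 1464 ± 70.7. In the Ovation libraries the ratio was 0.77 ± 0.07 in G1 and -0.78 ± 0.52 in quiescent cells for the steady-state fraction, with 0.77 ± 0.15 and -0.28 ± 0.25 for the nascent fraction, and the libraries of the 2 states did not overlap in either fraction.

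**Figure D3:**
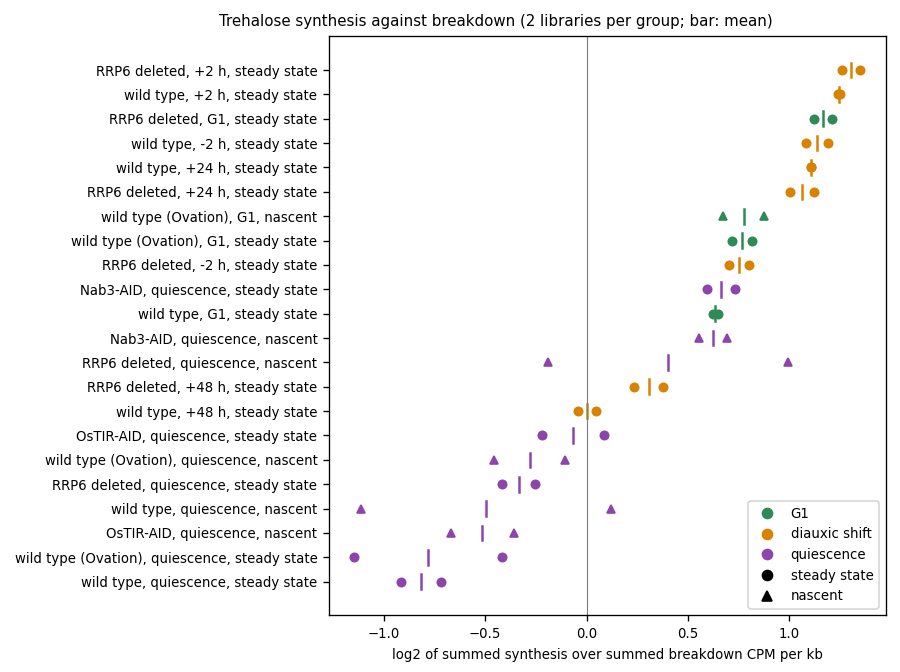
Log2 ratio of summed synthesis to summed breakdown CPM per kilobase in each library, by group and in order of the group means (bars), with circles for steady-state and triangles for nascent RNA. All 8 G1 libraries lie above 0 and the wild-type quiescent groups have means below 0, while Nab3-AID quiescent libraries lie above 0. Quiescent rrp6Δ nascent RNA also has a mean above 0 (0.40, libraries at -0.19 and 0.99). Replicate 2 of wild-type day 8 nascent (0.12) and of OsTIR-AID steady-state RNA (0.09) lies above 0 too.

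Per kilobase, TPS1 was the most abundant of the 7 transcripts in wild-type cells before the shift, at 183 CPM per kilobase, followed by NTH1 at 115, TPS3 at 70.7, TPS2 at 60.7, TSL1 at 39.0, NTH2 at 36.2 and ATH1 at 8.57. At 48 h TPS1 and NTH1 were level, at 699 ± 52.8 and 698 ± 35.1, TPS2 stood at 553, ATH1 at 390, NTH2 at 373, TSL1 at 191 and TPS3 at 21.8. NTH1 was above NTH2 per kilobase in 43 of 44 libraries, and TSL1 was above TPS3 in 34 of 44.

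The highest and lowest of the 22 group means differed most for ATH1, from 1926 CPM in OsTIR-AID quiescent nascent RNA to 31.2 in wild-type cells before the shift, a 61.8-fold range. The range was 26.6-fold for TSL1 (1424 in rrp6Δ at 2 h to 53.5 in wild-type G1), 14.6-fold for NTH2 and 10.0-fold for TPS1. It was 9.10-fold for TPS2, 6.27-fold for TPS3 and 6.05-fold for NTH1. TPS3 had its highest mean in Ovation G1 steady-state RNA (332), the next in wild type at 2 h after the shift (260.0) and its lowest in wild-type quiescent steady-state RNA of day 8 (53.0). Of the 21 neighbouring pairs in each gene's order, 14 had ranges that did not overlap for ATH1, 10 for TSL1, 9 for NTH2, 8 for NTH1, 7 for TPS3, 6 for TPS1 and 5 for TPS2. These orders span 2 kits and both fractions. For ATH1 the highest group mean was of nascent and the lowest of steady-state RNA. With K. lactis scaling the means of these ATH1 groups were 157.9 and 92.5.

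Across the 22 group means, centred within each set of libraries, NTH2 and ATH1 varied together (Pearson r 0.94), as did NTH1 and NTH2 (0.92), while TPS3 had r between -0.75 and -0.13 with the other 6. These correlations are descriptions over groups that share strains, kits and times and differ in depth. Of 5889 genes, those most like TPS1 were AIM41 (0.96), NNR1 (0.96) and BCY1 (0.95), and those most like TPS2 were LAM5 (0.93), DUF1 (0.92) and IKS1 (0.92). TPS3 was most like ECM31 (0.95), BSP1 (0.94) and VPS52 (0.94), and TSL1 most like YGR067C (0.94), REG2 (0.94) and ISF1 (0.93). NTH1 was most like HFD1 (0.96), ATG34 (0.95) and CAR2 (0.95), NTH2 most like PKH2, SPS19 and ECI1 (each 0.98), and ATH1 most like YNL194C, PXA2 and CSR2 (each 0.99).

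What Rrp6 does to these transcripts was asked in G1 and at each time around the shift. TSL1 was higher in rrp6Δ than in wild type in G1, before the shift and at 48 h, and TPS1, TPS2 and ATH1 had their largest differences at 24 h. In G1, 2 of 7 were higher and 2 lower, against 48.5% of all genes called. TSL1 stood at 133 and 131 CPM in rrp6Δ and 64.4 and 42.6 in wild type (1.36 ± 0.16, adjusted p 1.3e-06), and NTH1 at 282 and 261 against 552 and 464 (-0.84 ± 0.09, adjusted p 5.4e-08). ATH1 differed by 0.49 ± 0.11 and TPS3 by -0.43 ± 0.09.

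Before the shift 4 of 7 were higher in rrp6Δ, against 62.7% of all genes called in either direction (1928 of 6182 higher). TSL1 stood at 233 and 261 CPM in rrp6Δ against 117 and 141 in wild type (1.02 ± 0.15, adjusted p 8.2e-06), ATH1 at 64.9 and 71.0 against 29.4 and 32.9 (1.20 ± 0.11, adjusted p 1.2e-09), and NTH1 at 396 and 402 against 259 and 262 (0.69 ± 0.09, adjusted p 7e-07). NTH2 differed by 0.24 ± 0.09 (adjusted p 0.0255), was at -0.18 with K. lactis scaling and was not called without 3 of the 4 libraries. At 2 h after the shift TPS3 (-0.37 ± 0.09) and NTH2 (-0.36 ± 0.08) were lower, against 62.9% of all genes called, and with K. lactis scaling all 7 were called lower.

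Over the shift itself 6 of 7 rose in rrp6Δ, against 73.7% of all genes called, with ATH1 at 3.19 ± 0.10, TSL1 at 2.49 ± 0.15 and TPS2 at 2.03 ± 0.12, and TPS3 at -0.03 ± 0.09 (adjusted p 0.782). NTH1 rose by 0.69 ± 0.09 but was at -0.61 with K. lactis scaling. The step was smaller than in wild type for 4 of 7, against 53.2% of all genes called in this test of the difference: by -1.04 ± 0.14 for ATH1, -0.82 ± 0.13 for NTH1, -0.82 ± 0.20 for TSL1 and -0.60 ± 0.12 for NTH2.

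At 24 h the strains parted for TPS1, TPS2 and ATH1. ATH1 stood at 295 and 316 CPM in rrp6Δ and at 944 and 892 in wild type (-1.67 ± 0.09, adjusted p 1.4e-14), TPS2 at 404 and 500 against 1004 and 955 (-1.20 ± 0.11, adjusted p 1.6e-09) and TPS1 at 569 and 678 against 1187 and 1184 (-1.01 ± 0.10, adjusted p 4.2e-09). With NTH1 (-0.39 ± 0.09) and NTH2 (-0.24 ± 0.08), 5 of 7 were lower, against 66.4% of all genes called. With K. lactis scaling, which moved the median of all genes by 1.39, ATH1 stayed negative (-0.27) and TPS1, TPS2, NTH1 and NTH2 were at 0.39, 0.20, 1.00 and 1.15. The NTH1 and NTH2 calls were lost without replicate 1 of rrp6Δ (-0.17 and -0.11), and NTH2 also without replicate 2 of wild type (-0.23).

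Between 2 h and 24 h, 4 of 7 fell in rrp6Δ, against 52.6% of all genes called: ATH1 by 1.06 ± 0.08 on the log2 scale, TPS2 by 0.76 ± 0.11, TPS1 by 0.64 ± 0.10 and TSL1 by 0.35 ± 0.14. With K. lactis scaling TPS1, TPS2 and TSL1 were at 0.12, 0.007 and 0.41. The TSL1 call was lost without replicate 1 at 2 h (-0.25) or at 24 h (-0.16). The step differed from wild type for 3 of 7, against 64.6% of all genes, at -1.82 ± 0.12 for ATH1, -1.13 ± 0.16 for TPS2 and -0.88 ± 0.14 for TPS1. With K. lactis scaling these differences were 0.36, 1.05 and 1.30.

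From 24 h to 48 h, 5 of 7 rose and TPS3 fell in rrp6Δ, against 76.6% of all genes called. ATH1 rose by 1.91 ± 0.09, TPS2 by 1.30 ± 0.11, NTH2 by 1.18 ± 0.08, NTH1 by 0.80 ± 0.09 and TPS1 by 0.36 ± 0.10, and with K. lactis scaling they were at -0.07, -0.68, -0.81, -1.18 and -1.62. TPS3 changed by -1.06 ± 0.10, and the TPS1 call was lost without replicate 1 at 24 h (0.18) or replicate 2 at 48 h (0.26). The step differed from wild type for 6 of 7, against 45.9% of all genes, with the 4 synthesis genes and ATH1 above wild type (0.69 to 1.43) and NTH2 below it (-0.32 ± 0.12). With K. lactis scaling the differences of TPS1, TPS2, TPS3 and TSL1 were 0.07, 0.22, 0.16 and 0.23, and none of them was called. ATH1 was at 0.80, NTH1 at -0.68 and NTH2 at -0.93 with that scaling, all called. The NTH2 difference was not called without 5 of the 8 libraries, as without replicate 1 of wild type at 48 h (-0.22).

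At 48 h all 7 differed between the strains, against 46.5% of all genes. TSL1 stood at 982 and 1198 CPM in rrp6Δ and at 629 and 631 in wild type (0.80 ± 0.14, adjusted p 1.6e-04), and TPS3 at 100 and 113 against 71.8 and 66.4 (0.62 ± 0.13, adjusted p 3.9e-04). NTH2 (-0.56 ± 0.08), NTH1 (-0.44 ± 0.09), TPS2 (-0.35 ± 0.11), TPS1 (-0.32 ± 0.10) and ATH1 (-0.24 ± 0.08) were lower, and with K. lactis scaling all 5 were above 0 (0.23 to 0.54). One rrp6Δ replicate at this time was sequenced in the other batch, and with batch as a term TPS1, TPS2 and ATH1 were not called (adjusted p 0.155, 0.206 and 0.0918). Each was also lost without that library (-0.23, -0.26 and -0.24) and without replicate 1 of wild type (-0.22, -0.31 and -0.19).

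In quiescent cells of day 8 none of the 7 was called between rrp6Δ and wild type by edgeR, in steady-state RNA (12.0% of all genes called) or in nascent RNA (1.22%). None had an unadjusted p under 0.05 either, and DESeq2 called none. TSL1 stood at 316 and 430 CPM in rrp6Δ and at 161 and 187 in wild type in steady-state RNA (1.11 ± 0.82, adjusted p 0.415). In nascent RNA it stood at 413 and 1391 against 110 and 672, so the 2 replicates of each strain differed by more than the strains. In both strains replicate 2 of nascent RNA was higher for all 7 genes, ATH1 for example at 438 and 504 in rrp6Δ and 497 and 558 in wild type. At both replicate numbers TPS1, TPS2, TPS3 and TSL1 were higher in rrp6Δ, but no label pairs these numbers between strains. The nascent libraries of the strains overlapped for all 4, TPS2 for example at 371 and 907 against 204 and 576. None of the 7 was called with the replicate block. Both fractions shared 1 estimate of the spread in this fit, so the wide nascent replicates also entered the steady-state tests. The steady-state libraries of the strains did not overlap for TPS2 (521 and 543 in rrp6Δ against 459 and 421), TPS3 and TSL1, all higher in rrp6Δ. They did not overlap either for NTH2 (512 and 497 against 633 and 595) and ATH1 (639 and 644 against 763 and 802), and they overlapped for TPS1 and NTH1. K. lactis scaling, with a median of 1.18 over all genes, called 6 of 7 higher in rrp6Δ steady-state RNA.

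**Figure D4:**
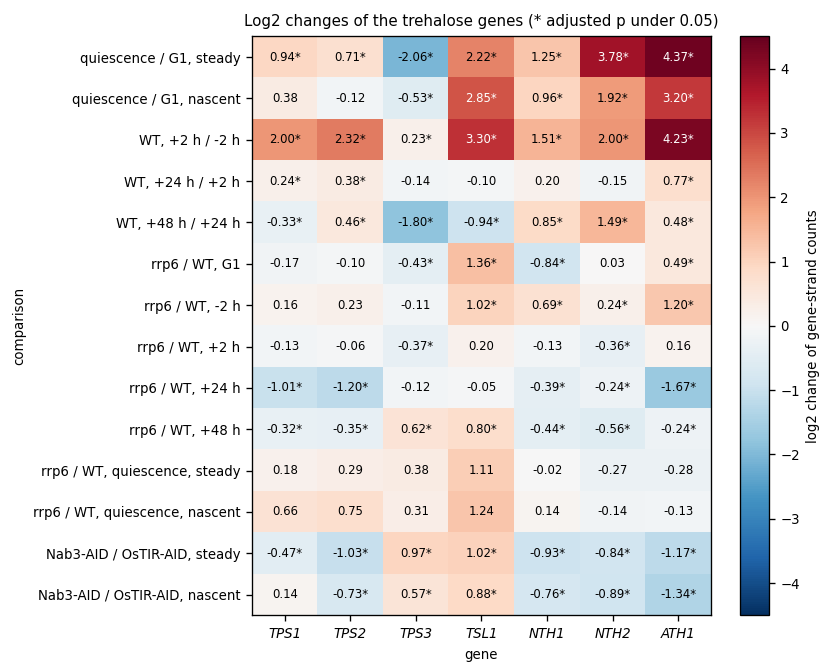
Log2 change of each gene (columns) in 14 comparisons (rows), with an asterisk where the adjusted p passed 0.05, on a colour scale from blue (lower) to red (higher). TPS3 is lower and the other 6 higher in quiescent than in G1 steady-state RNA. In Nab3-AID cells TPS3 and TSL1 are higher while the trehalases are lower. Under K. lactis scaling many rows shift, among them the Nab3-AID values of TPS1, TPS2, NTH1 and NTH2, and that of ATH1 in steady-state RNA (0.50).

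In quiescent cells with auxin, 6 of the 7 genes differed in the same direction in both fractions, TPS1 being the exception. The trehalases and TPS2 were lower in Nab3-AID than in OsTIR-AID cells, and TSL1 and TPS3 were higher. In steady-state RNA 2 were higher and 5 lower, against 62.7% of all genes called, and in nascent RNA 2 were higher and 4 lower, against 70.1%. Wild-type quiescent steady-state RNA of day 8, without auxin, lay nearer Nab3-AID for ATH1 (763 and 802 CPM), TPS1 (464 and 416) and TPS2 (459 and 421). It lay nearer OsTIR-AID for NTH1 (957 and 1090), NTH2 (633 and 595), TPS3 (57.2 and 48.8) and TSL1 (161 and 187). By group means of nascent RNA, wild type of day 8 lay nearer Nab3-AID for NTH1 (454 and 735), NTH2 (233 and 308), ATH1 and TPS2. By the same means it lay nearer OsTIR-AID for TPS3 and TSL1, and its TPS1 (102 and 280) was below both strains. These strains were not tested against wild type.

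ATH1 stood at 668 and 731 CPM in Nab3-AID and at 1712 and 1700 in OsTIR-AID steady-state RNA (-1.17 ± 0.10, adjusted p 4.7e-08), and at 680 and 722 against 2008 and 1845 in nascent RNA (-1.34 ± 0.10, adjusted p 5.9e-09). NTH1 stood at 506 and 538 against 1116 and 1044 (-0.93 ± 0.10) and at 492 and 524 against 964 and 901 (-0.76 ± 0.09). NTH2 stood at 355 and 358 against 676 and 717 (-0.84 ± 0.10), and at 268 and 293 against 564 and 569 (-0.89 ± 0.09). In steady-state RNA K. lactis scaling, with a median of 1.81 over all genes, put ATH1, NTH1 and NTH2 at 0.50, 0.74 and 0.84, and in nascent RNA, with a median of 1.12, it put NTH1 and NTH2 at 0.30 and 0.18.

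TPS2 stood at 392 and 438 against 864 and 979 CPM in the steady-state fraction (-1.03 ± 0.11) and at 466 and 541 against 869 and 951 in the nascent fraction (-0.74 ± 0.10), and with K. lactis scaling at 0.64 and 0.34. TSL1 stood at 842 and 885 against 433 and 490 (1.02 ± 0.12, adjusted p 1e-06) and at 955 and 1111 against 563 and 653 (0.88 ± 0.11, adjusted p 1.9e-06). TPS3 stood at 115 and 115 against 57.0 and 70.9 (0.97 ± 0.14) and at 207 and 214 against 152 and 154 (0.57 ± 0.10). For TPS2, TPS3, TSL1 and the trehalases the strains did not overlap in either fraction. TPS1 was lower in steady-state RNA (-0.47 ± 0.18, adjusted p 0.0396), was at 1.19 with K. lactis scaling and was not called without replicate 1 of Nab3-AID or replicate 2 of OsTIR-AID, and in nascent RNA it did not pass (0.14 ± 0.17, adjusted p 0.498).

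The synthesis to breakdown ratio was 0.66 ± 0.10 in Nab3-AID and -0.07 ± 0.22 in OsTIR-AID cells for the steady-state fraction, with 0.62 ± 0.10 and -0.52 ± 0.22 for the nascent one (SD, n = 2), with no overlap between the strains. The summed breakdown transcripts stood at 576 ± 23.3 against 1245 ± 12.7 CPM per kilobase in steady-state RNA, and the summed synthesis transcripts at 914 ± 97.7 against 1194 ± 168.

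Reads on the strand opposite the genes were tested in the same way, with the library sizes of the gene strand. Catalogued noncoding transcripts lie antisense to 5 of the 7 genes. The transcript joined from SUT008, NUT0017 and XUT-2F-78 covers all of NTH2, on chromosome II from 238397 to 241294. The one joined from CUT1265 and NUT0043 covers all of TPS1 (chromosome II, 488763 to 490473), and XUT-16R-276 with CUT3884 covers 47.7% of ATH1 (chromosome XVI, 615704 to 617438). TPS2 and NTH1 are overlapped over 8.77% and 6.83% of their length.

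In Nab3-AID cells antisense reads were higher at 2 of 7 genes in steady-state RNA, NTH2 and ATH1, against 69.3% of all genes called, and at 4 of 7 in nascent RNA, against 83.7%, most of these calls over all genes being upward (63.3% and 76.7% higher). NTH2 had 465 and 397 antisense reads in Nab3-AID nascent RNA and 20 and 40 in OsTIR-AID (2.86 ± 0.38, adjusted p 2.1e-05), or 14.6% (95% exact Clopper-Pearson interval 13.4% to 15.9%) and 14.7% (13.4% to 16.1%) of all reads over the gene in Nab3-AID. In OsTIR-AID the share was 0.701% (0.429% to 1.08%) and 1.95% (1.40% to 2.65%). These intervals cover counting error only.

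ATH1 had 472 and 352 antisense reads against 59 and 74 in nascent RNA (1.64 ± 0.21, adjusted p 5.1e-10) and 111 and 91 against 9 and 8 in steady-state RNA (1.88 ± 0.36, adjusted p 9.1e-06). The steady-state NTH2 reads were 92 and 113 against 9 and 2 (2.55 ± 0.64, adjusted p 0.00398). Over all genes the median antisense change was 1.975 in nascent and 2.128 in steady-state RNA. The ATH1 changes lay below these medians in both fractions, and the NTH2 changes lay above them. At TSL1, which no catalogued antisense transcript overlaps, nascent antisense reads were 63 and 87 against 19 and 26 (0.79 ± 0.34, adjusted p 0.0326). The TSL1 call was lost without replicate 2 of Nab3-AID or replicate 1 of OsTIR-AID, and that of TPS3 (31 and 19 against 2 and 4 reads) without replicate 1 of OsTIR-AID. Whether the antisense reads bear on the lower NTH2 and ATH1 levels was not tested.

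**Figure D5:**
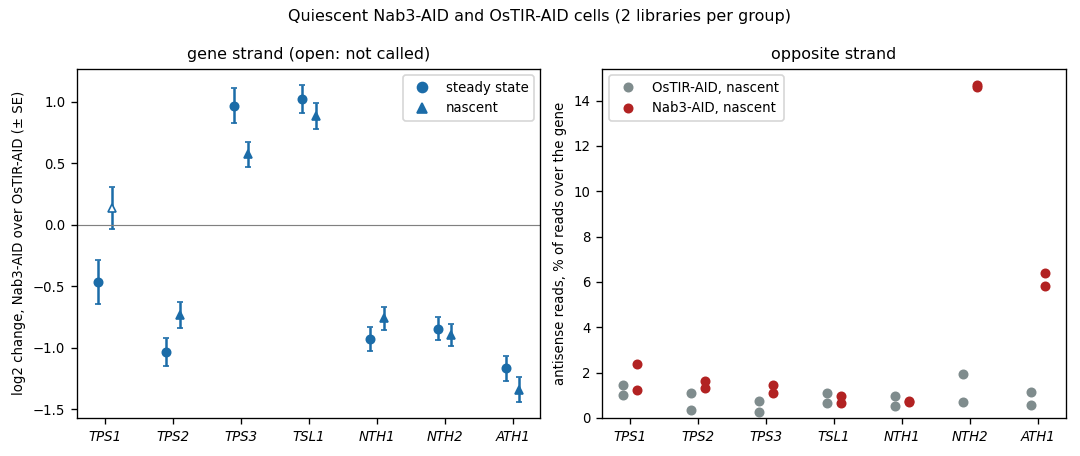
Left, log2 change of each gene in Nab3-AID over OsTIR-AID quiescent cells with standard errors, in steady-state (circles) and nascent RNA (triangles), open where not called, as shares of mRNA (K. lactis scaling puts TPS1, TPS2, NTH1, NTH2 and ATH1 above 0 in steady-state RNA). Right, antisense reads as a percent of all reads over each gene in nascent RNA, 1 point per library: NTH2 and ATH1 stand at 14.6% and 14.7%, and at 6.41% and 5.84%, in Nab3-AID.

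Gene-strand reads outside the genes were also counted, within the longer transcripts that the authors assembled. The transcript assembled in quiescent cells starts 614 bases upstream of ATH1 (chromosome XVI, 614765 to 619118, plus strand), and the one assembled in G1 starts 111 bases upstream. In nascent RNA, reads of the quiescent transcript that were not counted on the gene numbered 992 and 833 in Nab3-AID and 22 and 32 in OsTIR-AID, while the gene itself held 6890 and 5676 against 10096 and 6510. In steady-state RNA they numbered 207 and 148 against 6 and 5. At NTH1, whose quiescent transcript reaches 237 bases upstream and 313 downstream, they were 697 and 548 against 584 and 370 in nascent RNA. For the library depths given below, those NTH1 counts show no excess in Nab3-AID. At TSL1 such nascent reads numbered 159 and 166 against 6 and 4, at TPS3 163 and 113 against 12 and 21, and at TPS1 193 and 169 against 51 and 54, so the excess in Nab3-AID was not particular to ATH1. Wild-type quiescent nascent RNA of the Ovation set held 292 and 194 such reads at ATH1. These counts are raw, not scaled to depth, and are given without a test. Nascent libraries held 6654856 and 5249342 S. cerevisiae mRNA reads in Nab3-AID and 4808631 and 3433097 in OsTIR-AID. Steady-state libraries held 2759692 and 2081776 against 1356331 and 1337088.

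In rrp6Δ, antisense reads in G1 were higher at 4 of the 6 genes tested, against 53.2% of all genes called in either direction (50.0% higher). TPS1 had 71 and 72 in rrp6Δ against 14 and 11 in wild type (2.00 ± 0.32, adjusted p 4.8e-09), NTH2 49 and 57 against 8 and 9 (2.12 ± 0.37, adjusted p 9.7e-08), ATH1 34 and 31 against 6 and 3 (2.32 ± 0.47, adjusted p 6.9e-06) and TPS2 31 and 31 against 8 and 11 (1.19 ± 0.40, adjusted p 0.00699). The TPS2 call was lost without replicate 1 of wild type (0.94). The same 4 were higher before the shift, against 60.1% of all genes called in either direction (55.2% higher). The NTH2 call was lost without replicate 2 of rrp6Δ (0.54) or replicate 1 of wild type (0.24). The gene-strand level of TPS1, TPS2 and NTH2 did not pass the test in G1, and that of ATH1 was higher.

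After the shift only NTH2 antisense was called higher, at 2 h (1.44 ± 0.35, against 61.4% of all genes called) and at 24 h (1.64 ± 0.49, against 59.0%), where TPS2 antisense was lower (-1.17 ± 0.40, and 0.22 with K. lactis scaling). At 48 h edgeR called 0 of 6, with 0 at an unadjusted p under 0.05, against 37.7% of all genes. In quiescent cells of day 8 it called 0 of 7 in steady-state RNA, with 1 at an unadjusted p under 0.05, against 30.8%, and NTH2 alone in nascent RNA (0.87 ± 0.29, adjusted p 0.0409), against 14.6%, a call lost without 3 of the 4 libraries. At 24 h both calls were lost without replicate 2 of wild type (1.16 for NTH2 and -1.10 for TPS2).

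Genes that feed or flank the pathway were counted in the same comparisons. Of 7 glycogen genes, 7 were higher at 2 h after the shift in wild type (median log2 2.52), against 77.5% of all genes called, among them the branching enzyme gene GLC3, at 56.9 and 77.4 CPM before and 772 and 778 after (3.55 ± 0.18, adjusted p 7.7e-12), and the glycogenin gene GLG1 (3.29 ± 0.11). In quiescent against G1 steady-state RNA 4 were higher and 2 lower (median 2.83), against 74.4% of all genes, with GLC3 at 4.15 ± 0.23 and GLG1 at 3.95 ± 0.39. In Nab3-AID steady-state RNA 1 was higher and 5 were lower (median -0.79), against 62.7% of all genes called, the trehalose genes having a median of -0.84 and all genes one of 0.11.

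Of the 6 genes that supply hexose phosphates and UDP-glucose, 3 rose and 3 fell over the shift, against 77.5% of all genes called. The glucokinase gene GLK1 rose by 3.44 ± 0.18 and the hexokinase gene HXK2 changed by -3.07 ± 0.11. In quiescent steady-state RNA the phosphoglucomutase gene PGM1 changed by -6.02 ± 0.23 and HXK2 by -5.47 ± 0.48, with 2 of 6 higher and 3 lower, against 74.4% of all genes called. Between 24 h and 48 h all 6 fell (median -2.01), against 71.2% of all genes called in either direction. GLK1 was the gene of this list called in quiescent rrp6Δ steady-state RNA, against 12.0% of all genes, at 971 and 885 against 327 and 290 CPM in wild type (1.60 ± 0.32, adjusted p 0.0189).

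Of 13 regulators, among them 14-3-3 proteins and stress transcription factors, 10 rose and 3 fell over the shift in wild type, against 77.5% of all genes called, with the Dcs1-related gene DCS2 at 4.21 ± 0.13. In quiescent steady-state RNA 9 were higher and 3 lower, against 74.4% of all genes called, DCS2 by 5.71 ± 0.32 and the transcription factor gene GIS1 by 3.90 ± 0.23. GIS1 was the 1 regulator called, lower, in quiescent rrp6Δ steady-state RNA (-0.85 ± 0.17, adjusted p 0.0174). At 24 h 10 of 13 were lower in rrp6Δ than in wild type (median -0.93), against 66.4% of all genes called in either direction. In Nab3-AID steady-state RNA 1 was higher and 9 were lower (median -0.59), against 62.7%.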

How the data were processed

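The authors deposited tables of read counts per gene and strand. Per the submitters' processing notes, FastQC, MultiQC, UMI-tools, STAR, SAMtools, HTSeq and deepTools were used with the sacCer3 and R64 builds. Their versions are not given in the sources used here. Per the names of the deposited tables, reads that aligned to more than 1 place were not counted. Of all reads, 7.99% to 62.5% were left out as not unique, 6.36% to 28.0% had no feature and 0.121% to 1.99% were ambiguous.

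The 46 columns of counts were joined into 44 samples, summing the runs of the 2 samples sequenced in both batches. In edgeR 4.0.16 (R 4.3.3), 4 sets were fitted separately, the Ovation libraries, day 8 quiescence, G1 with the shift, and the auxin strains, with filterByExpr, TMM and the robust quasi-likelihood F-test. Every p is from edgeR unless another tool is named, adjusted by Benjamini-Hochberg over all genes, and 0.05 is the threshold for a call. Standard errors were taken as the absolute log2 change divided by the root of F. There were 24 gene-strand and 9 antisense comparisons. Replicates carry different strain numbers, but the labels do not say that they are separate cultures, so p-values measure the spread between samples, which may be technical.

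Within a genotype the same replicate number is the same strain number, which is where the pairing comes from. Deviations of same-numbered libraries of 1 genotype correlated at -0.03 to 0.45 in the Ovation set, 0.10 to 0.14 at day 8, -0.08 to 0.13 around the shift and 0.12 to 0.47 with auxin. Between genotypes, where no label pairs the numbers, the day 8 values ran from -0.065 to 0.65, the highest between rrp6Δ and wild-type nascent RNA. All 7 genes were named in every comparison, likeness named the 3 most alike genes per member, and related lists named up to 2 genes. The members and lists were chosen with earlier results of these data known. Fits were tested on simulated data. DESeq2 1.42.0, K. lactis scaling, other filters, tables, batches and left-out libraries were alternatives. Those for antisense reads were chosen after seeing the data.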

Additional observations from a re-analysis of the deposited data

Results flagged for a closer look

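Changes that differed between fractions or strains by a test of the difference were looked at again, and 16 were found. Between G1 and quiescence, the nascent minus steady-state value was -1.86 for NTH2, 1.53 for TPS3 and -1.18 for ATH1. Over the diauxic shift, the step in rrp6Δ minus that in wild type was -0.60 for NTH2, -0.82 for NTH1, -0.82 for TSL1 and -1.04 for ATH1. From 2 h to 24 h it was -0.88 for TPS1, -1.13 for TPS2 and -1.82 for ATH1. From 24 h to 48 h it was 0.69 for TPS1, 0.84 for TPS2, 0.74 for TPS3, 0.85 for TSL1, 1.43 for ATH1 and -0.32 for NTH2. Groups of 2 libraries were not examined for samples far from the others.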

How the results depend on the processing

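K. lactis scaling reversed the sign of 59 of 168 changes where at least 1 of the settings was called, the amount of K. lactis cells or RNA being absent from the labels. It gave, in quiescence against G1 in nascent RNA TPS1 -4.06, TSL1 -1.56, NTH1 -3.46, NTH2 -2.51 and ATH1 -1.15 and in its nascent minus steady-state difference TPS3 -2.51 and TSL1 -3.61. It gave, in nascent against steady state in G1 TPS1 0.99 and in nascent against steady state in quiescence TPS3 -1.40 and TSL1 -2.14. It gave, in rrp6Δ against wild type in quiescent steady-state RNA NTH1 1.12, NTH2 0.87 and ATH1 0.86 and in rrp6Δ against wild type before the shift NTH2 -0.18. It gave, in rrp6Δ against wild type at 2 h TSL1 -0.59 and ATH1 -0.63 and in rrp6Δ against wild type at 24 h TPS1 0.39, TPS2 0.20, TPS3 1.27, TSL1 1.35, NTH1 1.00 and NTH2 1.15. It gave, in rrp6Δ against wild type at 48 h TPS1 0.46, TPS2 0.42, NTH1 0.33, NTH2 0.23 and ATH1 0.54 and in the wild-type shift step TPS3 -0.71. It gave, in wild type from 2 h to 24 h TPS1 -1.18, TPS2 -1.04, NTH1 -1.21 and ATH1 -0.65 and in wild type from 24 h to 48 h TPS2 -0.90, NTH1 -0.50 and ATH1 -0.88. It gave, in the rrp6Δ shift step NTH1 -0.61 and in rrp6Δ from 2 h to 24 h TPS1 0.12, TPS2 0.007, TSL1 0.41, NTH1 0.71 and NTH2 0.74. It gave, in rrp6Δ from 24 h to 48 h TPS1 -1.62, TPS2 -0.68, NTH1 -1.18, NTH2 -0.81 and ATH1 -0.071 and in the strain difference of the 2 h to 24 h step TPS1 1.30, TPS2 1.05, TSL1 1.94, NTH1 1.92 and ATH1 0.36. It gave, in Nab3-AID against OsTIR-AID in steady-state RNA TPS1 1.19, TPS2 0.64, NTH1 0.74, NTH2 0.84 and ATH1 0.50 and in Nab3-AID against OsTIR-AID in nascent RNA TPS2 0.34, NTH1 0.30 and NTH2 0.18. For antisense reads in rrp6Δ at 24 h it gave TPS2 0.22, NTH1 1.02 and ATH1 1.16. The log2 of the highest over the lowest group mean became -0.31 for TPS1, -0.56 for TPS2 and -1.14 for NTH1. With plain CPM in place of CPM per kilobase the synthesis to breakdown difference over the shift was -0.019, against 0.11, and the other ratio differences kept their direction. The number of the 7 genes called with K. lactis scaling was 4 against 7 in quiescence against G1 in steady-state RNA, 7 against 3 in its nascent minus steady-state difference, 3 against 1 in nascent against steady state in G1, 6 against 0 in rrp6Δ against wild type in quiescent steady-state RNA, 7 against 2 in rrp6Δ against wild type at 2 h, 7 against 3 in wild type from 2 h to 24 h, 7 against 4 in the strain difference of the shift step, 7 against 3 in the strain difference of the 2 h to 24 h step, 3 against 6 in the strain difference of the 24 h to 48 h step and 3 against 6 in Nab3-AID against OsTIR-AID in nascent RNA. The number of the 7 genes called with 1 fit over all 44 libraries was 3 against 1 in nascent against steady state in G1, 2 against 4 in rrp6Δ against wild type in G1, 2 against 4 in rrp6Δ against wild type before the shift, 1 against 2 in rrp6Δ against wild type at 2 h, 3 against 5 in rrp6Δ against wild type at 24 h, 2 against 7 in rrp6Δ against wild type at 48 h, 1 against 3 in wild type from 2 h to 24 h, 4 against 7 in wild type from 24 h to 48 h, 1 against 4 in rrp6Δ from 2 h to 24 h, 2 against 4 in the strain difference of the shift step and 1 against 6 in the strain difference of the 24 h to 48 h step. The number of the 7 genes called with DESeq2 was 2 against 1 in nascent against steady state in G1. The number of the 7 genes called without the low count filter was 0 against 1 in nascent against steady state in G1. The number of the 7 genes called with batch as a term was 4 against 7 in rrp6Δ against wild type at 48 h. Leaving out 1 library at a time left 3 to 5 called (against 5) in quiescence against G1 in nascent RNA, 2 to 5 called (against 3) in its nascent minus steady-state difference, 0 to 0 called (against 1) in nascent against steady state in G1, 3 to 6 called (against 6) in nascent against steady state in quiescence, 3 to 5 called (against 5) in rrp6Δ against wild type at 24 h and 4 to 7 called (against 7) in rrp6Δ against wild type at 48 h. Of 784 such values 53 lost and 10 gained a call. The replicate block changed 1 of 168 gene-strand calls, that of TPS3 in quiescence against G1 in nascent RNA (log2 -0.54, adjusted p 0.0502), and no count of called genes beyond 1.5 times. Around the shift and at day 8 the number is not shared between strains by any label. For antisense reads the replicate block gained 1 call. The first run alone changed 0 of 119. In 82 values the sign differed with neither setting called. The causes were not tested. With 2 libraries per group, small changes may go uncalled.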
